A study of Homo sapiens with 9 samples.

Results

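The parental HaCaT line is the untransfected starting point of a study of actin in the nucleus, and its baseline profile was read from the 3 arrays labelled as the parental line, out of 9 arrays in the series. HaCaT cells are spontaneously immortalised human keratinocytes grown as an attached culture in a serum-containing medium. The parental cells carried no actin construct, while the other 6 arrays, from lines that stably express actin fused to a green fluorescent protein, were not used here. Total RNA was amplified and hybridised to a whole-genome expression array, and each probe set was given a MAS5 signal, a linear intensity in arbitrary units.

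Genes were ranked by the mean log2 signal of the 3 arrays, with each gene represented by its brightest probe set that names a single gene. The ranking held 19775 genes, and the percentile of a gene is the share of these genes that lie at or below it. Probe sets differ in how well they bind, so that a place in this ranking orders signals rather than transcript numbers. As a background reference, the 95th percentile of 82 olfactory receptor genes was taken in each array, which gave signals of 15.4, 20.6 and 22.7 in replicates 1, 2 and 3. Of all genes, 12395 (62.7%) exceeded the reference in all 3 arrays, 2019 did so in 1 or 2 arrays and 5361 in none. A fixed signal of 100 was exceeded in all 3 arrays by 10204 genes (51.6%). In a culture profiled in bulk, fewer cells of a kind and less RNA per cell cannot be told apart.

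The epidermis is renewed by basal keratinocytes, which sit on a basement membrane, divide, and build their cytoskeleton from the keratin pair KRT5 and KRT14. As the cells leave that layer they switch to KRT1 and KRT10, strengthen their desmosomes, and then make involucrin, loricrin, filaggrin and the other proteins of the cornified envelope. The transcription factor p63, encoded by TP63, holds the basal state and the stratified lineage together. TP63 was not analysed here, because no probe set that names it alone was listed.

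**Figure D1:**
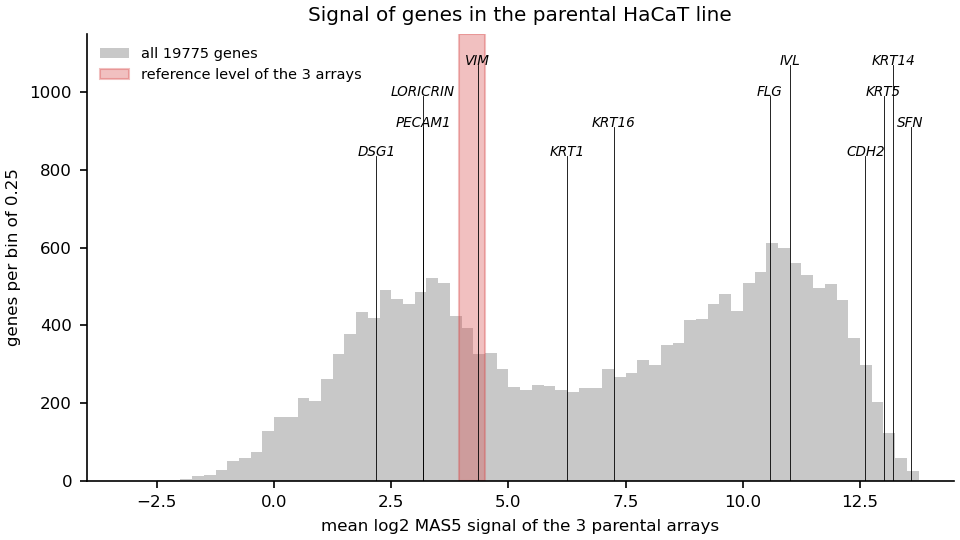
Histogram of the mean log2 MAS5 signal of 19775 genes in the 3 parental arrays, in bins of 0.25, with the span of the reference levels of the arrays shaded and selected genes marked by lines. KRT5, KRT14, SFN and CDH2 lay at the bright end, whereas DSG1, LORICRIN and PECAM1 lay to the left of the reference.

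The arrays had equal trimmed means, between 500.04 and 500.05 after removal of 2% at each end, but not equal ranges. All 20 genes at the top of the ranking had their lowest signal in replicate 1 and their highest in replicate 3, and replicate 1 was the lowest array for 472 of the top 500 genes. After quantile normalization the median SD of those 500 genes went from 0.233 to 0.081 on the log2 scale, so that for some bright genes the percentile within each array is given beside the signal. Among the 12395 genes above the reference the median SD between arrays was 0.226 (log2, n = 3), and replicates 1 and 3 correlated at 0.985 across genes, against 0.976 for replicates 1 and 2 and 0.974 for replicates 2 and 3. Replicate 2 stood farthest from the other two, with an SD of its deviations of 0.464 against 0.362 and 0.400. The ACTB 3′ to 5′ signal ratio measures how far the labelled material reaches along a transcript. It was 5.0, 7.96 and 6.28 in replicates 1, 2 and 3. The same ratio for GAPDH was 1.6, 1.4 and 1.41, lowest in replicate 2. The part of either ratio in these differences was not tested. Values without replicate 2 are given with the spread between arrays, after the gene lists.

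The brightest genes encoded the machinery of protein synthesis and respiration. ATP5F1E, a subunit of the mitochondrial ATP synthase, led the ranking with signals of 11453, 14337 and 17057 in replicates 1, 2 and 3. It was followed by RPS23 and RPL37 of the ribosome, the translation initiation factor EIF1, the elongation factor EEF1A1 and PPIA, which encodes cyclophilin A. The rest of the top 20 comprised RPL10A, RPLP2, RPL24, the mitochondrially encoded cytochrome oxidase subunit COX2, RPL41, RPL35A, RPL39, SFN, ACTB, HUWE1, TUBA1B, ATP5F1A, RPS6 and LAMP1. Ribosomal protein genes accounted for 9 of the top 20 and 36 of the top 100, and respiratory chain and ATP synthase genes for 10 of the top 100. SFN, at rank 14, encodes stratifin, an epithelial 14-3-3 protein, and was the brightest member of any keratinocyte list. Its signals were 9743, 13104 and 14368, and all 3 of its probe sets lay above the reference. The top 100 further held 3 S100 genes and a single keratin, KRT14, at rank 100.

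Basal keratins were among the brightest transcripts of the line. KRT14, the acidic partner of the basal pair, gave 7816, 10484 and 10339.7 in replicates 1, 2 and 3, which placed it at percentile 99.5 (SD 0.24, log2, n = 3). KRT5, its basic partner, gave 6373, 9727 and 8904 and stood at percentile 98.9 (SD 0.32). Replicate 1 was the lowest array for both genes, and within the arrays KRT14 stood at percentiles 99.4, 99.7 and 99.3 and KRT5 at 98.3, 99.4 and 98.6. KRT15, a keratin of quiescent basal cells and the hair follicle bulge, gave 4362, 7932 and 3184 and was highest in replicate 2 (percentile 94.3). Thus all 3 measured basal keratins lay above the reference, beside 62.7% of all genes, and the 2 available markers of the keratinocyte label, KRT5 and KRT14, both lay in the top 5% of the ranking.

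Keratins of simple epithelia, which line ducts and glands and are not made by most cells of healthy epidermis, were bright in the same arrays. The list counted KRT80 with these keratins, and all 7 measured members lay above the reference, beside 62.7% of all genes. Their median percentile was 92.2, the place of KRT80 itself. KRT18 gave 6056, 7463 and 11835 (percentile 98.9), KRT19 gave 4514, 7977 and 6641 (97.1), and KRT7 gave 4323, 4945 and 5996 (94.9). KRT8, the partner of KRT18, gave 3003, 3551 and 4275 (percentile 90.2), and KRT80 stood at percentile 92.2. KRT18 was highest in replicate 3 and KRT19 in replicate 2, and within the arrays KRT18 stood at percentiles 97.8, 98.2 and 99.6 and KRT19 at 94.2, 98.6 and 96.7. KRT23 and KRT20 were dim, at percentiles 44.7 and 39.2. Without probe sets whose names mark possible cross-hybridisation, 4 simple epithelial keratins stayed measurable and all 4 lay above the reference. Among the keratins of wounded and hyperproliferative epidermis, KRT16 was measured and gave 137, 195 and 129.6, at percentile 49.6. KRT6A, KRT6B, KRT6C and KRT17 were not analysed here, since no probe set naming each of them alone was listed.

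**Figure D2:**
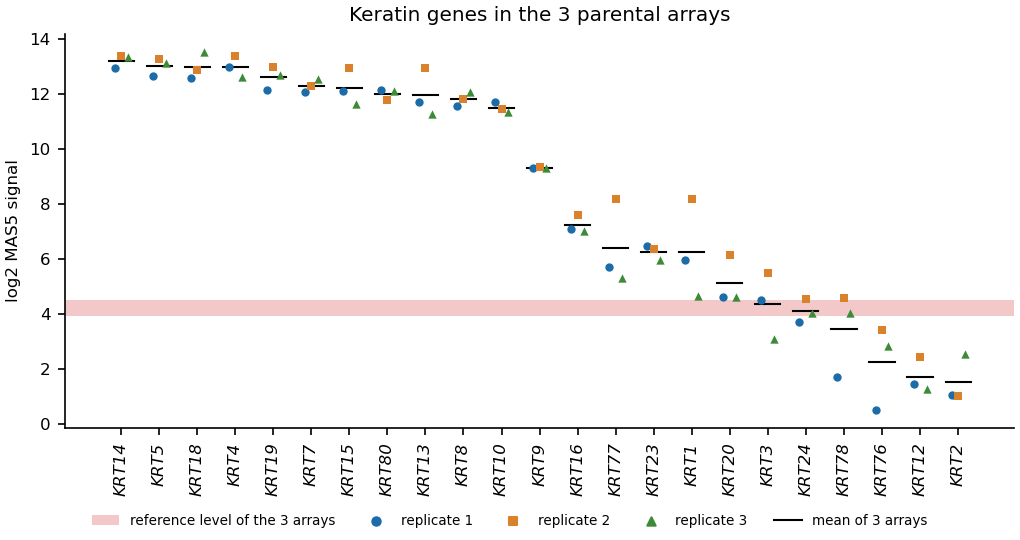
Log2 MAS5 signal of keratin genes other than those of the hair follicle in parental replicates 1, 2 and 3, ordered by the mean (bar), with the span of the reference levels shaded. KRT14 and KRT5 led the order, KRT4 and KRT13 stood with the simple epithelial keratins, and KRT1 and KRT77 spread widely between the arrays.

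Of 12 suprabasal and mucosal keratins, 6 lay above the reference (50%, against 62.7% of all genes), and 4 exceeded a signal of 100 in all 3 arrays. KRT4 and KRT13 form the pair of the suprabasal layers of oral and oesophageal mucosa. KRT4 gave 7950.2, 10495 and 6264 (percentile 98.8) and KRT13 gave 3354, 7851 and 2473 (percentile 91.9, SD 0.86), with replicate 2 highest and replicate 3 lowest for both. Within the arrays KRT13 stood at percentiles 89.3, 98.5 and 84.7. KRT10, an early mark of the suprabasal epidermis, gave 3315, 2782 and 2578 (percentile 87.03), while KRT1, its usual partner, gave 62.1, 287 and 25.1 (percentile 44.7). KRT1 was highest in replicate 2, where it lay at percentile 54.2 of that array against 43.2 and 35.8 in replicates 1 and 3. KRT77, a basic keratin related to KRT1, had the same array order at 52.7, 288 and 40.03. KRT9, the keratin of palms and soles, gave 637, 647 and 627, with an SD of 0.02. KRT2, KRT76 and KRT12, which mark the upper epidermis, the palate and the cornea, did not exceed the reference in any array, and KRT3, KRT24 and KRT78 exceeded it in some. Of 20 hair follicle keratins, KRT32 alone exceeded the reference in all 3 arrays, with signals of 25.03, 43.97 and 25.2, and no member reached a signal of 100.

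Promoter sequences of the ranked genes were set beside these levels. RefSeq promoters (GRCh38.p14) from 250 bases before to 50 bases after a start were searched for TATAAA on the gene strand, with its first base 20 to 40 bases before the start, and for TGANTCA, which reads the same on both strands and covers the known site of AP-1 factors. TATAAA was found at that place in 2.56% of the 21490 promoters of ranked genes and in 2.30% of all 35116 promoters. Keratin genes had it in 14 of 33 promoters (42.4%). The early differentiation list had it in 7 of 18 (38.9%) and the proliferation list in 0 of 20. It was found in 1.70% of the promoters of genes above the reference in all 3 arrays and in 4.47% of those of genes above it in none. TGANTCA was found in 6.24% of the promoters of ranked genes and in 7.71% of all promoters. The early differentiation list had it in 10 of 18 promoters (55.6%) and the late differentiation list in 9 of 51 (17.6%). Keratin genes had it in 0 of 33. Its share was 5.4% for genes above the reference in all 3 arrays and 8.09% for genes above it in none. Several promoters can belong to 1 gene, clustered genes of a family share sequence, and a match is a description of letters, not a bound site. The promoters of a bright basal keratin (KRT5), the brightest early differentiation gene (SFN), an envelope gene above the reference (IVL) and an envelope gene below it (LORICRIN) are given 5′ to 3′ on the gene strand, with either motif in capitals. They lie at chr12:52520345-52520644 (minus strand), chr1:26862899-26863198, chr1:152908296-152908595 and chr1:153259437-153259736 (plus strand) in that order.
KRT5: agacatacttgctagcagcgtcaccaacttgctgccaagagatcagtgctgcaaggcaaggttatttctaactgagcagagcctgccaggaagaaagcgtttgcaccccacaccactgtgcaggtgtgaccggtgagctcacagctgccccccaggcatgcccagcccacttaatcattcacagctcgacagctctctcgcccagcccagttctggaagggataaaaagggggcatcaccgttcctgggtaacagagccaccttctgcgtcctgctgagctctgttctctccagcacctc
SFN: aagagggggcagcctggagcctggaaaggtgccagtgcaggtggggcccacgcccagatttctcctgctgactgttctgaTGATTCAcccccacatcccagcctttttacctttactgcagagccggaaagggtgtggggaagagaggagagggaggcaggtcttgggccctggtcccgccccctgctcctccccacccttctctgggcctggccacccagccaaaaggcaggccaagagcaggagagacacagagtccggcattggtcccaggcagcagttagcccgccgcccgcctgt
IVL: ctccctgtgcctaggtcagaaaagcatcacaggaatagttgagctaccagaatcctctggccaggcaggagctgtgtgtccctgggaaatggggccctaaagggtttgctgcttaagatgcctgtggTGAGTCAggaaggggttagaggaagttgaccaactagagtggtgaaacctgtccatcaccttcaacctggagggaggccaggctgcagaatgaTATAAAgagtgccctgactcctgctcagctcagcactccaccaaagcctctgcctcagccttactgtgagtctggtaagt
LORICRIN: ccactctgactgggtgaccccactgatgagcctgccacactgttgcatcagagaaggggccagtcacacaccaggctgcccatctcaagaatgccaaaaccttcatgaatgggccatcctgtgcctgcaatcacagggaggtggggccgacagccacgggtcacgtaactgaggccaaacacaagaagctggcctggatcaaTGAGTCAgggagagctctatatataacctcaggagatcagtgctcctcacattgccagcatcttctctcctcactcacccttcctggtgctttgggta
The IVL promoter held TATAAA with its first base 30 bases before the start and TGANTCA 123 bases before it. SFN held TGANTCA 170 bases before its start and LORICRIN 48 bases before its start, while KRT5 held neither motif as searched. IVL and SFN lay above the reference and LORICRIN did not.

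Genes of cell to cell junctions made up some of the brightest lists. Desmosomes join the keratin networks of neighbouring cells, and 14 of 16 desmosome genes lay above the reference (87.5%, against 62.7% of all genes). Their median percentile was 87.3, with 6 members in the top 5%. The linker desmoplakin, DSP, had near equal signals of 6271, 6168 and 6154 (percentile 97.05, SD 0.01). PERP, a membrane protein of desmosomes and a p63 target, gave 7566, 8844 and 8846 (percentile 99.1), and PPL, encoding periplakin, stood at percentile 97.9. Plakophilin 4 (PKP4) lay at percentile 97.04 and plakoglobin (JUP) at 90.7. PKP1, the plakophilin of suprabasal cells, gave 1644, 2743 and 1652 and was highest in replicate 2.

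The desmosomal cadherins differed by isoform. The isoforms of basal and simple epithelia were bright, with DSG2 at 5806, 6008 and 6912 (percentile 97.1), DSC3 at 5272, 5912 and 6165 (96.4), DSC2 at 4075, 4243 and 3472 (91.5) and DSG3 at 1995, 3159 and 2003 (83.8). DSG1 and DSC1, the isoforms of the upper epidermis, gave 1.24, 6.62 and 11.4 and 0.278, 10.8 and 1.08, below the reference in every array. DSG4, known from the hair follicle and upper epidermis, exceeded the reference in all 3 arrays at 110.3, 144 and 53.4. No array departed from this division.

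**Figure D3:**
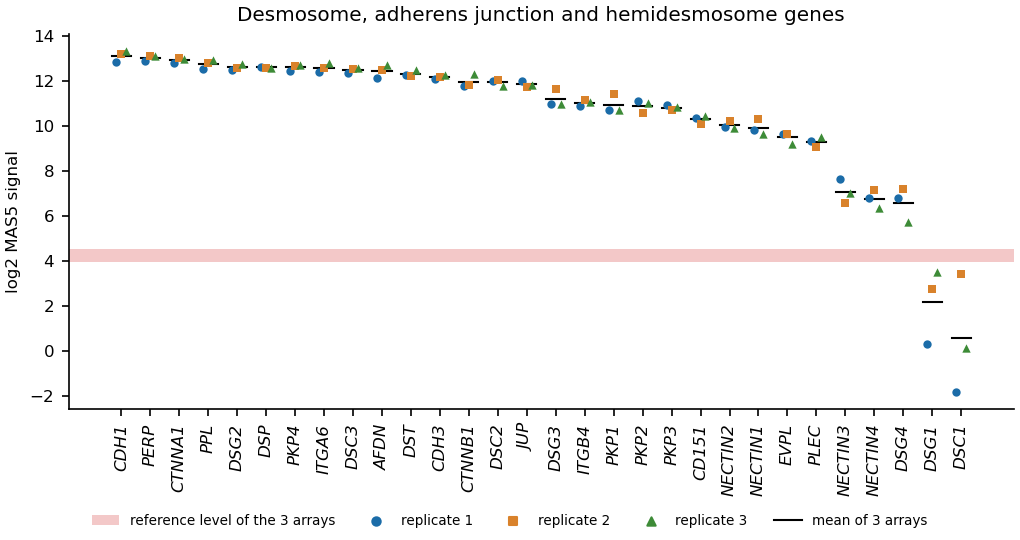
Log2 MAS5 signal of desmosome, adherens junction and hemidesmosome genes in parental replicates 1, 2 and 3, ordered by the mean (bar), with the span of the reference levels shaded. All members but DSG1 and DSC1 lay above the reference in the 3 arrays.

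Adherens junctions, which couple neighbouring cells through classical cadherins and actin, had all 9 measured genes above the reference, beside 62.7% of all genes. E-cadherin (CDH1) gave 7343, 9400.0 and 10333 (percentile 99.3), and P-cadherin (CDH3), the classical cadherin of basal cells, gave 4298, 4575 and 4899 (percentile 93.8, SD 0.09). The catenins CTNNA1 and CTNNB1 lay at percentiles 98.6 and 91.8, and the actin-binding adaptor afadin (AFDN) at 95.96. The nectins were dimmer, from 70.4 for NECTIN2 and 69.3 for NECTIN1 down to 46.99 for NECTIN4.

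Hemidesmosomes anchor the basal cell to its basement membrane, and all 5 measured genes lay above the reference, beside 62.7% of all genes. Both chains of the α6β4 integrin were present, with ITGA6 at 5364, 6039 and 7019 (percentile 96.9) and ITGB4 at 1892, 2242 and 2141 (percentile 81.95). DST, whose epithelial isoform is the plaque protein BP230, gave 4839, 4716 and 5775 (percentile 95.04). The tetraspanin CD151 and plectin (PLEC) lay at percentiles 73.1 and 63.6. COL17A1, which encodes the transmembrane collagen of the hemidesmosome, was not analysed here. Replicate 3 exceeded the mean of the other two for all 5 genes, and their SDs ran from 0.13 to 0.24.

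Tight junctions seal the space between cells, and in epidermis they form in the granular layer. Of 19 tight junction genes, 13 lay above the reference (68.4%, against 62.7% of all genes). TJP1, encoding the scaffold ZO-1, gave 4906, 5957 and 7512 (percentile 96.8), occludin (OCLN) gave 4683, 4579.7 and 4736 (percentile 94.03) and tricellulin (MARVELD2) stood at percentile 93.6. Among claudins, CLDN7, CLDN1 and CLDN12 led at percentiles 89.4, 83.03 and 80.1. CLDN1, the claudin on which the epidermal barrier depends, gave 2294, 2234 and 2169.9 with an SD of 0.04. By contrast, CLDN8 gave 427, 1256 and 182 and the scaffold TJP3 gave 521, 1611 and 184, in both cases highest in replicate 2 and lowest in replicate 3. Both probe sets of TJP3 lay above the reference. CLDN5, the endothelial claudin, and CLDN10 and CLDN17 did not exceed the reference in any array.

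Gap junctions pass small molecules between neighbouring cells, and 5 of 9 genes lay above the reference (55.6%, against 62.7% of all genes). GJA1, encoding connexin 43 of the basal and spinous layers, gave 3155, 2174 and 2719 (percentile 85.8), and GJC1, encoding connexin 45, stood at percentile 77.9. The keratinocyte connexin genes GJB2, GJB5 and GJB6 followed at percentiles 71.7, 64.5 and 47.4. GJB1 of liver and nerve and GJA4 and GJA5 of vessels did not exceed the reference in any array.

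Basement membrane genes lay above the reference for 17 of 18 members (94.4%, against 62.7% of all genes). A signal of 100 in all 3 arrays was exceeded by 14 of the 18, beside 51.6% of all genes. LAMB3, the β chain of laminin 332, gave 3437, 4124 and 4676 (percentile 92.04), and LAMB1 and LAMC1, chains of other laminins, stood at 94.3 and 87.5. The type IV collagen genes COL4A2 and COL4A1 lay at percentiles 89.8 and 87.5. COL7A1, which forms the anchoring fibrils below the membrane, gave 1165, 814 and 1229 (percentile 70.6). LAMA5, an α chain of laminins, stood at percentile 82.4, whereas LAMA4, FREM2 and LAMA2 were dim and LAMA1 exceeded the reference in a single array. LAMA3 was not analysed here.

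Integrins are the receptors through which cells hold their matrix, and 13 of 23 subunits lay above the reference (56.5%, against 62.7% of all genes). ITGB1, the common β chain of collagen and laminin receptors, gave 6995, 6390.4 and 7111 (percentile 97.8, SD 0.08). ITGB5 and ITGAV, which pair as a vitronectin receptor, stood at percentiles 96.5 and 93.7. The collagen receptor chain ITGA2 gave 4009.6, 3315 and 4018 (percentile 91.05), the laminin receptor chain ITGA3 gave 946, 811 and 822 (67.9) and the fibronectin receptor chain ITGA5 gave 652, 541 and 772 (64.1). ITGAE and ITGB8 lay at percentiles 84.2 and 83.8. ITGA4, a chain better known from leukocytes, gave 1185, 1011 and 971 (percentile 70.6). ITGA1, ITGB7, ITGA10 and ITGA2B lay above the reference at percentiles from 40.5 to 48.3. Of the chains known from leukocytes or platelets, ITGA4, ITGAE, ITGB7 and ITGA2B thus lay above the reference. The leukocyte chains ITGB2, ITGAL, ITGAM and ITGAD and the platelet chain ITGB3 were below it in every array.

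Receptor tyrosine kinases, through which epidermal cells read growth factors, ranged from percentile 94.9 down to 1.57. Of 44 receptors, 25 lay above the reference (56.8%, against 62.7% of all genes). MET, the receptor of hepatocyte growth factor, gave 5040.0, 4451 and 5577 (percentile 94.8). EGFR gave 3491, 3906 and 4069.8 (percentile 91.2, SD 0.11), and AXL, a receptor that binds GAS6, gave 4920.0, 3231 and 6844 (94.3). Replicate 3 was the highest array for these 3 receptors, and AXL had the widest gap, with replicate 2 lowest and within-array percentiles of 95.4, 88.8 and 97.0. RYK, a Wnt co-receptor that lacks kinase activity, stood at percentile 94.9.

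FGFR2, whose epithelial isoform binds FGF7, gave 3444, 2699 and 3349.9 (percentile 88.3), and FGFR3 gave 2562, 4904 and 2081 (87.5), highest in replicate 2. IGF1R was even across the arrays at 2740.4, 2791 and 2951 (percentile 86.8), and INSR, the insulin receptor, gave 655, 1571 and 870.5 (69.4). Within the EGF receptor family ERBB3 and ERBB2 followed EGFR at percentiles 75.7 and 66.4, and ERBB4 gave 235, 172 and 183 (51.6). EPHB4 and EPHA2 led the ephrin receptors at percentiles 85.2 and 67.3. KIT, which melanocytes and mast cells use, gave 1.37, 2.05 and 0.598, and FLT3, PDGFRA, CSF1R, TEK and KDR also failed to exceed the reference in any array. By contrast, FLT1 exceeded the reference in every array by its brightest probe set, with signals of 494, 646 and 922 (percentile 64.4). None of the other FLT1 probe sets did so in every array.

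Of 9 ligands of the EGF family, 5 lay above the reference (55.6%, against 62.7% of all genes). NRG1, a ligand of ERBB3 and ERBB4, gave 4081, 2876 and 3465 (percentile 89.6), with all 6 of its probe sets above the reference. TGFA gave 1587, 1189 and 2075 (percentile 76.9), EREG, encoding epiregulin, gave 966, 510.3 and 1226 (67.7) and HBEGF gave 544, 459 and 769 (62.5). These 4 ligands shared their lowest array, replicate 2, and the fifth member above the reference, NRG4, did not. EGF itself exceeded the reference in 1 array, with signals of 11.7, 1.32 and 29.9. Without replicate 2, NRG1, TGFA, EREG and HBEGF stood higher, at percentiles 90.9, 79.4, 71.1 and 64.2. The median percentile of the list, which is the place of NRG4, was then 54.2, against 54.6 with all arrays.

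Receptors of the TGF-β family, which restrains keratinocyte growth, had 10 of 11 members above the reference (90.9%, against 62.7% of all genes). TGFBR1 gave 4678, 2770.3 and 3634 (percentile 90.4) and TGFBR2 gave 2923, 2174 and 2176 (84.2). The activin and BMP receptors ACVR2A, BMPR2 and ACVR1B stood at percentiles 76.5, 76.4 and 74.5. ACVRL1, the endothelial member, did not exceed the reference in any array.

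Transcription factors of the epidermal lineage lay above the reference for 26 of 30 members (86.7%, against 62.7% of all genes), with 5 in the top 5%. A fixed signal of 100 in all 3 arrays was exceeded by 21 of the 30, beside 51.6% of all genes. The AP-2 factors TFAP2A and TFAP2C, which act early in ectoderm and keep the keratinocyte program, gave 5036, 6844 and 6817 and 5382, 5707 and 6845 (percentiles 97.02 and 96.7). EHF, an epithelial ETS factor, and KLF5 of proliferating basal cells stood at 95.7 and 95.6. GRHL2, a grainyhead factor that maintains epithelial junctions, gave 4980.1, 5709 and 4699 (percentile 95.1). SOX15, SOX9, BNC1 and GATA3 followed at percentiles 91.3, 85.7, 83.7 and 80.8. BNC1, basonuclin of basal cells, gave 2655, 1393 and 3345, with replicate 2 lowest, whereas ELF3, a factor of differentiating epithelium, gave 2384, 4546 and 1834, with replicate 2 highest.

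The other factors of the list ranged from CEBPB at percentile 78.3 down to the dim members. KLF4, which is required for the barrier, gave 813, 713 and 857 (percentile 66.8), GRHL3 gave 279, 361 and 268 (55.4) and OVOL1 gave 605, 744 and 611 (64.1). ZNF750, a p63 target that drives terminal differentiation, gave 27.7, 54.8 and 29.4, and PRDM1 gave 30.7, 56.2 and 23.2, both above the reference but at percentiles of 39.3 and 39.1. TP73, the p63 relative, was likewise dim at 56.2, 65.9 and 25.9. In replicate 2, 20 of the 26 factors above the reference exceeded the mean of replicates 1 and 3, beside 54.7% of all genes above the reference. The hair follicle factor LHX2 and the factors PITX1 and TRPS1 exceeded the reference in 1 or 2 arrays, and TFAP2B in none. RUNX1 was not analysed here.

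Early differentiation genes lay above the reference for 14 of 19 members (73.7%, against 62.7% of all genes). SFN and CSTA, encoding cystatin A of the envelope, stood at percentiles 99.9 and 97.5. Involucrin (IVL), the scaffold on which the envelope is built, gave 2182, 3707 and 1086 (percentile 81.8, SD 0.89). The retinoid carrier CRABP2 gave 1349, 2953 and 1023 (77.2), the receptor NOTCH3 gave 495, 1534 and 503 (65.6) and dermokine (DMKN) gave 826, 840.0 and 823 (67.4). IVL, CRABP2 and NOTCH3 were highest in replicate 2, while DMKN was even across the arrays with an SD of 0.02. The small proline-rich proteins SPRR1B and SPRR1A gave 596, 779 and 412 and 272, 547 and 248, and TGM1, the transglutaminase that cross-links the envelope, gave 75.1, 239.8 and 56.5 (percentile 46.5). TGM1 again stood apart in replicate 2. SBSN, CALML5, SPRR2C, SPRR4 and SPRR2G did not exceed the reference in any array. At a fixed signal of 100 in all 3 arrays, 8 of the 19 genes counted, beside 51.6% of all genes.

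Genes of the cornified envelope and of late differentiation lay above the reference for 17 of 34 members (50%, below the 62.7% of all genes), and 7 of those above it were kallikreins. The kallikreins are serine proteases, of which KLK5 and KLK7 are known to cut corneodesmosomes in shedding skin. KLK10, KLK5, KLK7 and KLK8 stood at percentiles 89.5, 86.7, 81.3 and 71.4. KLK5 gave 2700.1, 2885 and 2851 (SD 0.05), and KLK7 gave 2118, 2414 and 1594. Filaggrin (FLG), which bundles keratin in the granular layer, gave 2202, 822 and 1970.3 from 1 probe set (percentile 76.4), here with replicate 2 lowest. Loricrin (LORICRIN), the main envelope protein of epidermis, gave 12.5, 18.3 and 3.19, below the reference in every array.

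Other late genes were at background with loricrin. FLG2, a relative of filaggrin, gave 0.557, 8.58 and 5.57, and CASP14, the caspase of cornification, gave 0.951, 10.1 and 1.71. The transglutaminases TGM3 and TGM5 and corneodesmosin (CDSN) also failed to exceed the reference in any array. Among the late cornified envelope genes, LCE1E exceeded the reference in all 3 arrays at 23.4, 55.5 and 30.1, LCE1B did so in 1 array, and LCE2B and LCE3D in none. The deiminases PADI1 and PADI3, which convert arginine to citrulline, gave 66.2, 103 and 28.4 and 30.2, 118 and 26.9, in both cases highest in replicate 2. CERS3, ELOVL4, ABCA12 and ABHD5, genes of barrier lipids, lay above the reference at percentiles 52.3, 50.7, 45.2 and 63.3, whereas ALOX12B and ALOXE3 did so in 2 arrays. With the reference set by genes of other tissues, or at a fixed signal of 100, 11 late genes counted in place of 17.

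Alarmins and antiproteases, which keratinocytes make in stress and defence, lay above the reference for 19 of 26 members (73.1%, against 62.7% of all genes). S100A2, a p63-regulated calcium-binding protein of basal cells, gave 7309, 10552 and 12651 (percentile 99.6), and the serpins SERPINB5 (maspin) and SERPINB13 stood at 99.2 and 97.2. IL1RN, the interleukin 1 receptor antagonist, gave 5978, 8413 and 9315 (percentile 98.6), against 1393, 934 and 2023 for IL1B and 663, 400.2 and 990.2 for IL1A. IL18 and SERPINB1 varied little, with SDs of 0.09 and 0.04. The S100 genes of inflamed epidermis were dim, with S100A7 at 182, 139 and 98.4, S100A8 at 279, 362 and 101 and S100A9 at 18.5, 29.7 and 29.7. In the same list SLPI, LCN2 and PI3 stood at percentiles 77.6, 71.6 and 50.9. DEFB1, a defensin, gave 142, 541 and 43.2, the widest spread of any list member above the reference. IL33, IL36A, S100A12 and SERPINB4 did not exceed the reference in any array. A fixed signal of 100 was exceeded by 12 of the 26, beside 51.6% of all genes.

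Genes used to mark mesenchymal cells and epithelial to mesenchymal transition ranged from percentile 97.2 down to 18.3. N-cadherin (CDH2) gave 6018, 5031 and 8182 (percentile 97.2) and fibronectin (FN1) gave 5743, 4371 and 8089.5 (96.6), in the same arrays in which CDH1 lay at percentile 99.3. Replicate 3 was highest and replicate 2 lowest for both genes, and within the arrays CDH2 stood at percentiles 97.7, 94.8 and 98.2. SNAI2, a repressor also active in basal keratinocytes, gave 1117, 876 and 1342 (percentile 71.2), and S100A4 stood at 69.4. Vimentin (VIM), the intermediate filament of mesenchymal cells, gave 27.4, 11.3 and 26.8 and exceeded the reference in 2 of 3 arrays. ZEB1, ZEB2 and SNAI1, repressors of CDH1, gave 8.47, 15.8 and 17.1, 7.16, 4.95 and 6.32 and 9.92, 12.3 and 9.48, below the reference in every array. TWIST1 and TWIST2 lay above it at percentiles 52.9 and 46.96, and ACTA2 gave 109, 215 and 73.2. In all, 7 of 12 members lay above the reference (58.3%, against 62.7% of all genes).

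Surface and adhesion markers of keratinocytes were bright, with 24 of 26 above the reference (92.3%, against 62.7% of all genes) and 9 in the top 5%. Tissue factor (F3) gave 8211, 9020.1 and 12801 (percentile 99.6), CD24 gave 8032, 9905 and 11276 (99.5) and the transferrin receptor TFRC gave 8387, 8628 and 10348 (99.4). The syndecan SDC1, the hyaluronan receptor CD44 and the complement regulator CD59 stood at percentiles 98.7, 98.7 and 98.6. EPCAM, an adhesion protein of simple epithelia, gave 5609, 5444 and 6719 (percentile 96.6). DLL1, a Notch ligand used to mark epidermal stem cells, and LRIG1, a restraint on EGFR in such cells, gave 290.3, 198 and 269 and 55.5, 26.1 and 49.8. LGR6 gave 1074, 1275 and 749 (percentile 69.97), while LGR5 and CD34, markers of follicle stem cells, did not exceed the reference in any array.

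Proliferation genes were high in every array, with all 20 above the reference, beside 62.7% of all genes, and a median percentile of 90.6. BIRC5 (survivin), AURKA, TOP2A and CCNB1, which act in mitosis, stood at percentiles 99.03, 98.4, 98.3 and 97.9. The ribonucleotide reductase subunit RRM2 and the kinase CDK1 lay at 97.6 and 96.9. MKI67, the gene of the Ki-67 antigen, gave 3937, 3164 and 3211 (percentile 89.5), and CCND1 gave 5197, 5766 and 6859.9 (96.6). CCNE1, the dimmest member, still stood at percentile 69.2. The list was steady between arrays, since no member had an SD above 0.33, although replicate 2 exceeded the mean of the other two for only 1 of 20 members.

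Of 9 genes of cell cycle brakes and immortality, 7 lay above the reference (77.8%, against 62.7% of all genes). MDM2, a ubiquitin ligase gene, stood at percentile 93.2 and RB1 at 87.02. The inhibitor genes CDKN1B, CDKN2B and CDKN1A lay at percentiles 82.3, 76.5 and 75.8. CDKN2A, which encodes p16, gave 949, 843 and 595 (percentile 66.6). TERT, the catalytic subunit of telomerase, gave 126, 173 and 130.3 (percentile 49.04, SD 0.25). CDKN1C and CDKN2D exceeded the reference in some arrays.

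Markers of other cells of the skin were mostly at background, while 62.7% of all genes lay above the reference in all 3 arrays. Of 11 leukocyte and Langerhans markers, CD14 alone exceeded the reference in all 3 arrays (76.2, 119 and 35.6), and PTPRC, which encodes CD45, gave 12.1, 1.61 and 8.07. Of 10 endothelial markers, ROBO4 and CDH5 did, with no signal above 66.1, and PECAM1 gave 7.92, 11.2 and 8.36. Of 9 melanocyte markers, MITF gave 2626, 2438 and 2699.8 and PMEL gave 15.8, 42.03 and 40.7, while TYR, MLANA, SOX10 and TYRP1 did not exceed the reference in any array. Fibroblast markers exceeded it for 4 of 12 genes, FBLN1 at 2653, 3445 and 2617, COL1A1 at 651, 794 and 380.2, COL3A1 at 132, 109.5 and 60.9 and COL5A1 at 85.4, 35.7 and 44.6, whereas DCN, LUM, POSTN and PDGFRA stayed below it in every array. Of 9 Merkel and neuronal markers, TUBB3 gave 6314, 9006 and 10096 and SYP gave 104, 134 and 104, and CHGA, INSM1 and ATOH1 were below the reference in every array. The signal summed over the leukocyte list ran from 91.2 to 224 per array, and that of the endothelial list from 159 to 208.

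**Figure D4:**
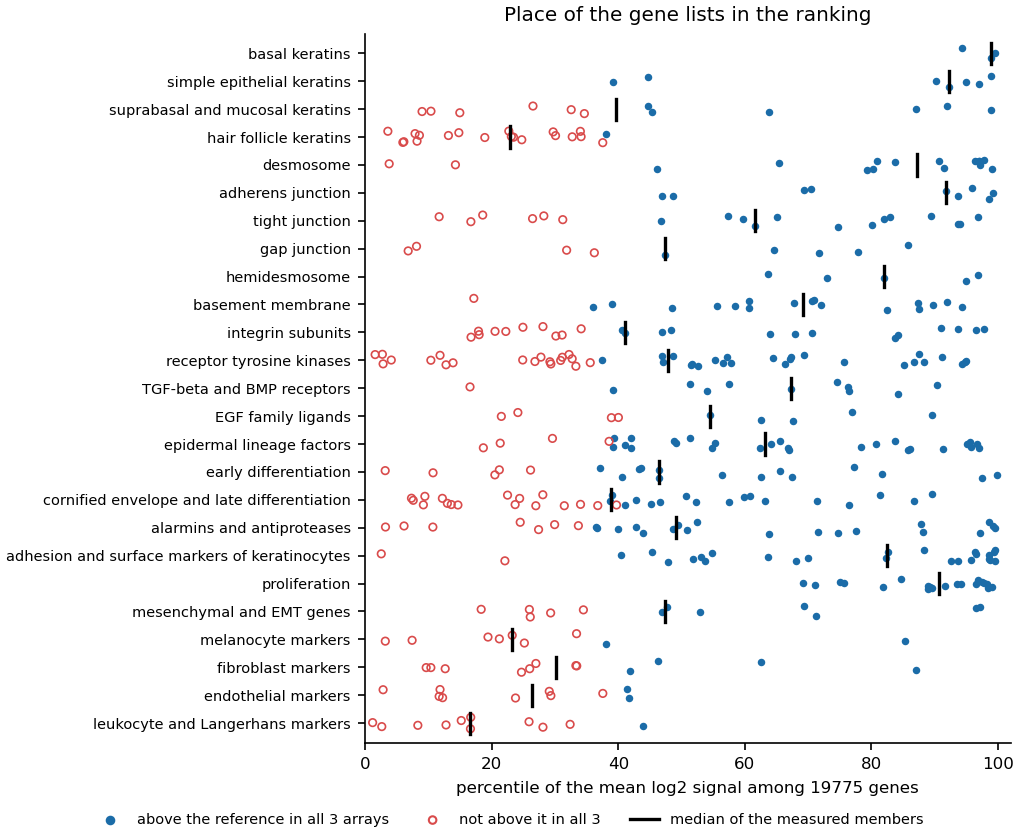
Percentile of the mean log2 signal among 19775 genes for each measured member of 25 gene lists, with members above the reference in all 3 arrays filled, the others open, and the median of each list as a bar. Basal keratins, adherens junction and proliferation genes lay to the right, and markers of leukocytes, endothelium, melanocytes and the hair follicle to the left.

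The spread between arrays was not even over the keratinocyte program. List members above the reference had a median SD of 0.295 (278 genes), and the widest were DEFB1 (1.82), KRT1 (1.78), TJP3 (1.57), KRT77 (1.54), CLDN8 (1.40), PADI3 (1.19), TGM1 (1.10), S100A8 (0.97), PADI1 (0.94) and NOTCH3 (0.94). Each of these 10 genes, picked for their spread, had its highest signal in replicate 2. Replicate 2 was also the highest array for 117 of the 278 list members and for 4739 of the 12395 genes above the reference. Replicate 2 exceeded the mean of replicates 1 and 3 for 6774 of 12395 genes above the reference (54.7%), and for 12 of 14 early differentiation genes, with a median difference of 0.58 on the log2 scale. Of the 6 suprabasal and mucosal keratins above the reference 5 were higher, with a median of 1.01, and of the 17 late differentiation genes 12, with a median of 0.29. Proliferation genes differed the other way, at 1 of 20 and a median of -0.11, as did the EGF family ligands, at 1 of 5 and -0.50, and the integrins, at 3 of 13 and -0.12. Desmosome genes differed little, with a median of 0.06. After quantile normalization, which took out the unequal ranges of the arrays, the counts were 11 of 14 for early differentiation, 5 of 6 for suprabasal keratins, 11 of 17 for late differentiation and 0 of 20 for proliferation, beside 51.2% of all genes. Without replicate 2 the median percentile went from 46.4 to 44.7 for early differentiation, from 39.6 to 35.7 for suprabasal and mucosal keratins and from 61.7 to 57.3 for tight junction genes, and their counts above the reference were 14, 6 and 13, as with all arrays. For late differentiation it went from 38.9 to 37.6, with 18 of 34 above the reference in place of 17. Without it KRT1 stood at percentile 40.5, IVL at 76.6, TJP3 at 56.01, CLDN8 at 54.98 and DEFB1 at 45.1. The percentile went from 91.9 to 86.9 for KRT13, from 94.3 to 90.7 for KRT15, from 77.2 to 72.2 for CRABP2 and from 65.6 to 61.0 for NOTCH3. It went from 86.1 to 81.9 for ELF3, from 87.5 to 83.4 for FGFR3 and from 80.9 to 77.7 for PKP1, and KRT4 stood at 98.1, KRT77 at 41.5, TGM1 at 43.8, PADI1 at 41.1 and PADI3 at 37.95.

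**Figure D5:**
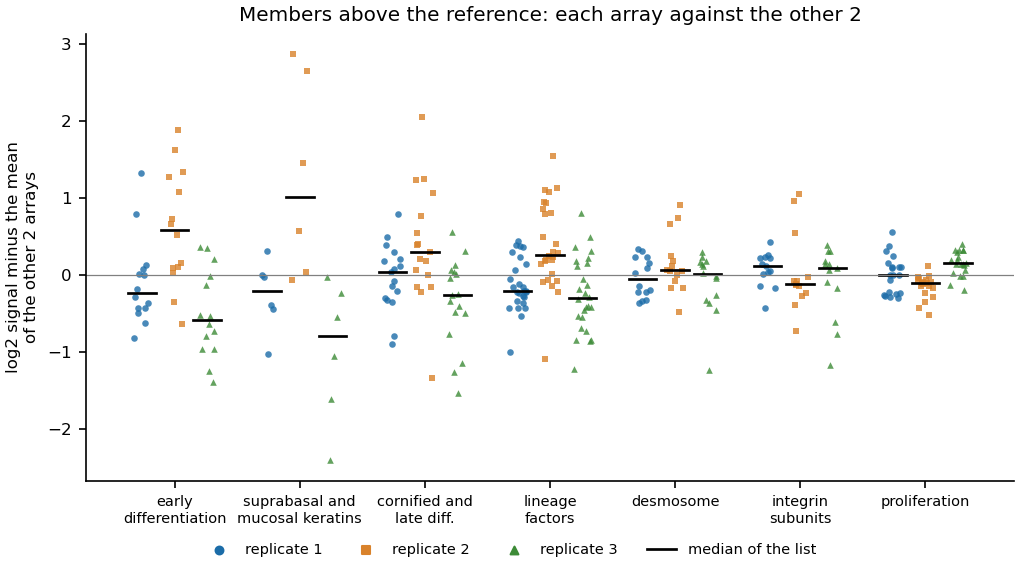
Log2 signal of each array minus the mean of the other arrays, for the members above the reference of 7 gene lists, with 1 point per gene and array and the median of each list as a bar. Replicate 2 lay above the others for early differentiation genes and suprabasal keratins and slightly below them for proliferation genes.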

How the data were processed

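Expression was measured on 3 arrays of the parental HaCaT line, labelled as replicates 1 to 3, and 6 arrays of the other lines were not used here. The authors amplified total RNA, hybridised it to Affymetrix U133 Plus 2.0 arrays and processed the scans with MAS5. The deposited values are MAS5 signal intensities on a linear scale, and the MAS5 version and scaling target are not given in the sources used here. The methods call the replicates experimental, and it is not stated whether the cells were grown separately. The number of arrays limits the precision.

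Each signal entered as its log2, with no offset and no filter on low values. After removal of 62 control probe sets, 54613 remained, of which 41091 name a single gene in the platform annotation, 1801 several and 11721 none. Symbols were updated through Entrez identifiers. The brightest probe set over the 3 arrays represented a gene, which mattered for 10523 genes with several. Genes were ranked by mean log2 signal, and no comparison was tested. The 29 gene lists held 547 genes, of which 471 were measured. The members and lists were chosen with earlier results of these data known. Named genes were the top 20 of the ranking, up to 6 of the highest members of each list, members above the reference in lists where few were, the 10 with the widest spread and genes that define a cell state, and further list members were named after their values were seen. The ranking and the reference were tested on simulated data, with raised genes set well above the reference and the spread between arrays capped. Calls near the reference were not tested in that way. Alternatives changed the reference, normalization, probe set choice and replicates. Promoters were RefSeq sequences matched by symbol to 15384 of the 19775 genes. Python 3.11.15, pandas 2.3.3, numpy 2.4.6 and matplotlib 3.10.9 were used.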

Additional observations from a re-analysis of the deposited data

How the results depend on the processing

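The count of genes above the reference ran from 10204 (fixed signal of 100) to 12925 (without replicate 3), against 12395 of 19775 genes ranked, and was 9743 of the 17098 genes left without probe sets of possible cross-hybridisation. Over 32 results and 11 alternatives, 311 of 352 values moved by less than 1.5 times (counts) or than the spread between arrays (percentiles), and 41 moved further. The percentiles of KRT5 and KRT14 could not move where only the reference changed, since the ranking does not use it. Counts of members above the reference that moved lay mostly in lists of dim genes.

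With the reference at the 90th percentile of olfactory receptor genes, 10 genes of other tissues counted in place of 5. At the 99th percentile the counts were 0 for hair follicle keratins (from 1), 1 for melanocyte markers (from 2), 0 for leukocyte markers (from 1), 0 for endothelial markers (from 2) and 3 for genes of other tissues. A reference of genes of other tissues gave 0 hair follicle keratins, 8 early differentiation genes (from 14), 11 late differentiation genes (from 17), 1 melanocyte, 2 fibroblast (from 4), 0 leukocyte and 0 endothelial markers and 3 genes of other tissues. The last of these counts was bound to be low, since the reference was the 95th percentile of those same genes. A fixed signal of 100 gave 0, 8, 11, 1, 2, 0, 0 and 2 for the same lists, and 12 alarmins (from 19).

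When the probe sets of each gene were averaged, 2 hair follicle keratins counted, and KRT5 and KRT14 stood at percentiles 99.63 and 99.83. Without probe sets of possible cross-hybridisation KRT5 and KRT14 stood at 99.57 and 99.85. There fewer members were measured, and 4 simple epithelial keratins, 3 suprabasal keratins, 3 hemidesmosome genes, 9 early differentiation genes, 15 surface markers, 1 melanocyte, 2 fibroblast and 1 neuronal marker and 2 genes of other tissues counted.

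Leaving out each replicate in turn gave 1 to 3 hair follicle keratins, 1 to 2 leukocyte markers and 6 to 9 genes of other tissues (5 with all arrays), with 2 hair follicle keratins without replicate 2 and the highest of each range without replicate 3. Quantile normalization, chosen for the replicate 2 counts after the data were seen, gave 0 proliferation genes higher in replicate 2 (from 1) and moved no other count by over 1.5 times. No paired analysis was possible because no groups were compared. Signals near the reference limit any statement on dim genes.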

Other observations

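Some bright genes of the parental line belong to no keratinocyte list. Of 47 genes chosen for their restriction to other tissues, 5 exceeded the olfactory receptor reference in all 3 arrays, beside 62.7% of all genes. Of these 5, 2 were bright. SCGB1A1, which encodes the secretoglobin of airway club cells, gave 6354, 8902 and 4452 (percentile 97.2), and MBP, whose locus encodes myelin basic protein and longer transcripts made in other cells, gave 4379.6, 5472 and 5046 (percentile 94.7). SFTPB, SFTPC and CELA3A were dim, with signals of 113, 114 and 85.7, 29.3, 60.5 and 33.4 and 34.3, 32.9 and 41.8, and INS, CRYAA and MYOG were below the reference in every array. SCGB1A1 was highest in replicate 2 and lowest in replicate 3, the order also seen for KRT4 and KRT13. TUBB3, a tubulin used as a neuronal marker, stood at percentile 99.02, MITF at 85.3 and FBLN1 at 87.1.

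Probe sets of a gene did not always share its place. HUWE1, which encodes a ubiquitin ligase, was at rank 16 by its brightest probe set, and the dimmest of its 5 probe sets lay at percentile 37.3. TMEFF2, at rank 22, had 3 probe sets, of which 1 exceeded the reference and the dimmest lay at percentile 5.49. The brightest probe set of TUBA1B stood at rank 17 and its dimmest at percentile 2.68, whereas the dimmer probe sets of RPL24 and COX2 lay at percentiles 99.8 and 99.9. TM4SF1, a tetraspanin-like surface protein, stood at rank 23 and exceeded the reference with 3 of its 5 probe sets.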
